A study of Mus musculus with 8 samples.

Results

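Cdx1, Cdx2 and Cdx4 are the 3 caudal-type homeobox genes of the mouse, and their values were taken from the 3 rows, of 19950 in the table, that carry these gene symbols. Cdx proteins are transcription factors that bind Hox gene clusters and set posterior identity along the body axis, and the genes themselves are known as targets of canonical WNT signalling in the primitive streak and tail bud. Cdx2 is also active earlier, in the trophectoderm and the extraembryonic ectoderm, where it maintains trophoblast identity. Cdx1 and Cdx4 are known from the streak and its mesoderm and neural derivatives.

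The samples were 8 whole mouse embryos at embryonic day 6.5, about the onset of gastrulation, profiled by bulk RNA sequencing: 4 WT embryos and 4 labelled as mutant for both Axin1 and Axin2. AXIN1 and AXIN2 hold together the machinery that degrades β-catenin, the messenger of canonical WNT signalling, and the comparison asks what their loss does to WNT signalling and mesoderm. The labels state neither allele structures nor litters nor embryo sexes, and the p-values describe the spread between these embryos only. In bulk embryos, a change in the number of cells that express a gene and a change in RNA per cell cannot be told apart.

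Reads assigned to genes ranged from 26615732 to 36778164 per library. Values below are scaled counts, meaning reads per gene after division by a size factor of the library, unless said otherwise. Replicates carry the numbers 1, 2, 4 and 5 within each genotype. Axin1 was 5274, 5140, 2963 and 4884 in WT replicates 1, 2, 4 and 5 and from 1721 to 2203 in mutants (a log2 fold change of -1.16, SE 0.18, limma adjusted p = 0.00269), whereas Axin2, whose exons overlap the antisense gene Gm11670, was 236 to 310.1 in WT and from 303 to 539 in mutants (a log2 fold change of 0.44, SE 0.20, limma adjusted p = 0.19). WT replicates 2 and 5 differed from the other 6 libraries in Y-linked transcripts, with a sum of at most 14.2 against at least 5243.5. Markers of extraembryonic ectoderm and of visceral endoderm were present in every library, as a whole embryo should hold.

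The sequences just upstream of Cdx2 and Cdx4 are shown because both genes were higher in the mutants and their start regions can be compared base by base. RefSeq promoter windows on GRCm38.p6 were matched for 2 of the 3 members. Bases after the annotated starts of RefSeq or GENCODE are left out, and capitals mark the octamer ATGCAAAT, a motif bound by POU factors, which was chosen after the sequences had been seen. The Cdx2 stretch is chr5:147307271-147307499 on the minus strand and the Cdx4 stretch chrX:103321148-103321397 on the plus strand.
Cdx2: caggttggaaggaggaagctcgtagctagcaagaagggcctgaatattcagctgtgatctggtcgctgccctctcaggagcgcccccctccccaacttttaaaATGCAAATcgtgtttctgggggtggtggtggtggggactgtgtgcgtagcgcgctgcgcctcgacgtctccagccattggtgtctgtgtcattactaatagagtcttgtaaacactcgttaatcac
Cdx4: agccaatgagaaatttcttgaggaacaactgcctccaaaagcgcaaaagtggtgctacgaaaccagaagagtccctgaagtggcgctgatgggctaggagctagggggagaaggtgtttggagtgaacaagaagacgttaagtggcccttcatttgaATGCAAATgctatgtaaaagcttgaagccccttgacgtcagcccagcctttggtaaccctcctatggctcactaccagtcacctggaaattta

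Both windows hold the octamer on the printed strand, its first base at position -147 from the RefSeq start in Cdx2 and -93 in Cdx4. Of 32851 promoter windows of 300 bases in the table, 1.74% hold it on either strand. The loose TCF/LEF-like pattern CTTTGNT, where N is any base, was searched on both strands because TCF and LEF factors carry the WNT signal to DNA. It matched as CTTTGGT at -46 in Cdx4 and not in the Cdx2 window (18.6% of all windows hold the pattern). The Cdx motif TTTATG (11.9% of windows) and the retinoic acid receptor half-site AGGTCA (16.3%) matched in neither window. CCAAT matched in both, on the opposite strand at -72 in Cdx2 and on the printed strand at -248 in Cdx4, and 37.4% of windows hold it. A match here describes letters only.

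The 3 genes lie on separate chromosomes. By the GENCODE M21 annotation of GRCm38 (mm10), Cdx1 (ENSMUSG00000024619.8) spans 61018862 to 61036199 on the minus strand of chromosome 18, Cdx2 (ENSMUSG00000029646.3) spans 147300805 to 147307270 on the minus strand of chromosome 5, and Cdx4 (ENSMUSG00000031326.2) spans 103321398 to 103330592 on the plus strand of chromosome X. Each has 1 annotated transcript of 3 exons, with an exon length of 1750 bases for Cdx1, 2261 for Cdx2 and 1963 for Cdx4. No other annotated gene overlaps any of them, so loss of strand in the library kit does not mix their reads with those of a gene on the other strand.

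All 3 caudal genes rose in the mutants, and in each of them every mutant library lay above every WT library. Among 15600 genes tested with limma, 8.03% were higher, 7.55% lower and 15.6% changed in either direction at an adjusted p under 0.05, and 11.2% had all mutant libraries above all WT libraries. These were 1253 genes higher and 1178 lower, and 1029 and 1590 with each library centred on its median. The size of the change differed between the 3 genes: Cdx4 ranked 1 of the 15600 by log2 fold change, Cdx1 ranked 5 and Cdx2 ranked 686. Ranks were taken with a pseudocount of 1 and at no other setting. With edgeR the log2 fold changes were 11.58 for Cdx4, 6.29 for Cdx1 and 1.85 for Cdx2. Genes were tested if at least 4 libraries held a scaled count of at least 10. Cdx4 passed this filter through the mutant libraries only, which fixed in advance that its groups would not overlap. With no filter its log2 fold change was 10.78 (limma adjusted p = 8.9e-06). All 3 were also called higher by edgeR and by DESeq2 on reads recovered from the scaled counts.

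Cdx4, a caudal gene of posterior tissues that in zebrafish is also needed for blood, had no read in WT replicates 1, 2 and 5 and 3 reads in WT replicate 4. The mutants held 3976, 2996, 1654 and 1636 reads in replicates 1, 2, 4 and 5, or 4283, 2759, 1557 and 1869.8 scaled counts. Summed over libraries, mutants had 10262 reads and WT had 3, and the depth-adjusted ratio was 3578 with an exact 95% counting interval of 1224 to 17351 that covers counting error only. On the log2(value + 1) scale the fold change was 10.78 (SE 0.49, limma adjusted p = 1.15e-05), a size that depends on the pseudocount because the WT values are at or near 0: it was 11.58 with a pseudocount of 0.5 and 8.77 with 5. The lowest mutant library was 599-fold above WT replicate 4, the library with the most WT reads. That same WT library had the lowest WT value of Axin1 and the highest of Cdx1, and whether these values are linked was not tested.

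Cdx1, which acts on the anterior limits of Hox expression in the vertebral column, was low but detectable in WT and uneven there. Its scaled counts were 84.4, 1.89, 90.1 and 40.2 in WT replicates 1, 2, 4 and 5, from 91, 2, 104 and 34 reads. The mutants held 5512, 4563, 2854 and 4335 in replicates 1, 2, 4 and 5, each at least 31.7-fold above the highest WT library. The log2 fold change was 7.08 (SE 0.96, limma adjusted p = 0.00148). Its SE was larger than that of Cdx2 or Cdx4, and 99.5% of genes tested varied less among WT libraries on the log2 scale. Without WT replicate 2 the log2 fold change was 5.94, and it was 5.57 when WT replicates 2 and 5 were both left out.

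WT replicate 2 was also the lowest WT library for 7 of the 13 tested genes of the posterior growth zone list and the highest for 1, Cyp26a1, a tally made after the values had been seen. The same tally was not made over all genes tested. T, the brachyury gene that marks the primitive streak, was 129.8 there and 846 to 1133 in the other WT libraries. Evx1, a homeobox gene of the posterior streak, was 566 there against 971 to 1470, and Tbx6, a paraxial mesoderm factor, was 6.63 against 58 to 99.4. Cdx2 did not share that pattern, with 769 in WT replicate 2 and 718 to 964 in the others.

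Cdx2 had the highest WT level of the 3 genes and the smallest change. Its scaled counts were 964, 769, 718 and 762 in WT replicates 1, 2, 4 and 5, an even group with a mean of 803 ± 109 (SD, n = 4). The mutants held 4987, 2621, 1792 and 2240.05 in replicates 1, 2, 4 and 5. Mutant replicate 1 stood highest, and the lowest mutant library was 1.86-fold above the highest WT library. The log2 fold change was 1.75 (SE 0.27, limma adjusted p = 0.00296), a 3.37-fold increase, and it was 1.46 without mutant replicate 1.

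**Figure D1:**
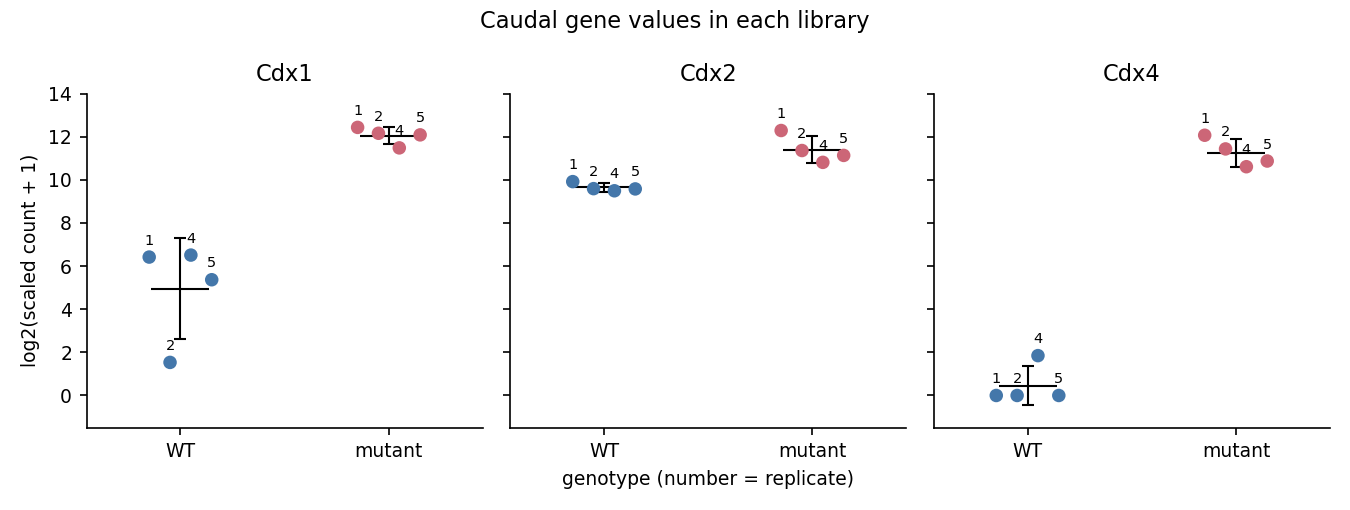
Each point is 1 library, labelled with its replicate number, on a vertical axis of log2(scaled count + 1) for Cdx1, Cdx2 and Cdx4; horizontal bars are genotype means and vertical bars the SD over 4 libraries. The WT values of Cdx4 sit at or near 0 and those of Cdx1 spread from 1.89 to 90.1 scaled counts, whereas all mutant values lie above all WT values.

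The changes of the 3 genes differed from each other. Within each library the log2 ratio of one gene to another was compared between genotypes by an exact permutation test over the 70 splits of 8 libraries, two-sided, adjusted over the 3 pairs. Cdx1 rose by 5.33 more than Cdx2 on the log2 scale (SE 1.16, adjusted p = 0.0286, exact), Cdx4 by 9.03 more than Cdx2 (SE 0.52, adjusted p = 0.0286, exact) and Cdx4 by 3.70 more than Cdx1 (SE 1.07, adjusted p = 0.0286, exact), and 0.0286 is the smallest p that 4 against 4 libraries allow. The difference between Cdx4 and Cdx2 was 9.83 with a pseudocount of 0.5 and 7.03 with 5. The difference between Cdx4 and Cdx1 fell to 2.07 with a pseudocount of 5 (adjusted p = 0.114, exact), and was 3.06 without WT replicate 1 and 4.69 without WT replicate 2. That pair also lost its call when any 1 of the mutant libraries was left out (adjusted p = 0.0571, exact).

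Compared per exon length, Cdx2 made up nearly all caudal transcripts in WT and 24.7% of them in the mutants. As RPKM, reads scaled to exon length in kilobases and to the assigned reads of the library, WT levels were 11.2 ± 1.53 for Cdx2, 0.976 ± 0.743 for Cdx1 and 0.0104 ± 0.0208 for Cdx4 (SD, n = 4). Cdx2 was above Cdx1, and Cdx1 above Cdx4, in each of the 4 WT libraries. In the mutants the levels were 79.2 ± 19.5 for Cdx1, 42.8 ± 19.7 for Cdx4 and 41.3 ± 20.1 for Cdx2. Cdx1 was the highest of the 3 in each mutant library, with a per-length ratio to Cdx2 of 1.43, 2.25, 2.06 and 2.5 in replicates 1, 2, 4 and 5.

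Cdx4 and Cdx2 reached nearly the same per-length level in the mutants. Their per-length ratio was 0.989, 1.21, 1.001 and 0.961 in replicates 1, 2, 4 and 5 (mean 1.04 ± 0.115), so neither was above the other in all 4 libraries. The share of Cdx2 in the summed per-length level of the 3 genes went from 92.2 ± 5.92% in WT to 24.7 ± 3.23% in the mutants, that of Cdx1 from 7.69 ± 5.79% to 49.7 ± 5.89%, and that of Cdx4 from 0.0894 ± 0.179% to 25.6 ± 3.21%. The summed level itself was 12.2 ± 1.87 in WT and 163 ± 57.4 in the mutants, with 10.8 to 14.97 in the WT libraries and 105.9 to 242 in the mutant ones. Of 19878 genes with an annotated length, 44.3% had a lower WT level than Cdx1, 76.2% than Cdx2 and 2.15% than Cdx4, and in the mutants the shares were 96.8%, 92.4% and 92.8%.

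**Figure D2:**
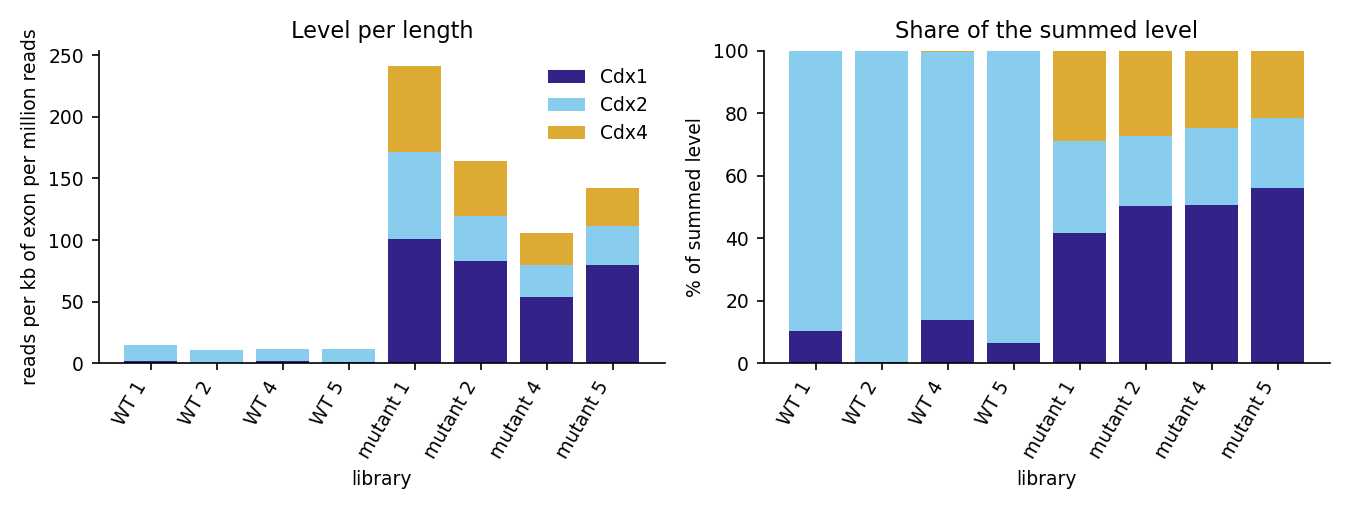
Stacked bars give the 3 genes in each library, on the left as RPKM and on the right as % of their summed level. WT bars are nearly all Cdx2 at 10.8 to 14.97 in sum, and mutant bars hold all 3 genes at 105.9 to 242 in sum.

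Among the mutants the 3 genes kept 1 order: replicate 1 was highest, then 2, then 5, and replicate 4 was lowest. That order was noticed after the values had been seen, and it held for 8.85% of the genes tested and for 13.6% of the genes that rose. The highest mutant value was 1.93 times the lowest for Cdx1, 2.78 times for Cdx2 and 2.75 times for Cdx4. Nkx1-2, a homeobox gene of posterior axial progenitors, kept that order too, with 2031, 821, 541 and 427 in replicates 1, 2, 5 and 4. With Evx1 and the WNT ligand gene Wnt3a it made 3 of 13 tested in the posterior growth zone list, and the order also held for 3 of 15 inputs to caudal genes (Tcf7, Bmp4 and Lef1) and 3 of 25 Hox genes.

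Markers of maternal decidua, the uterine tissue around the embryo, also moved with genotype. Of 8 tested members of that list 6 rose and none fell, beside 8.03% and 7.55% of all genes tested. The summed level of its 9 members was 328 to 1960 in WT and 5084 to 43129 in the mutants. Lum was at 0 in every WT library, and the decidual prolactin gene Prl8a2 was 21.7 to 1129 in WT and 134.7 to 6283 in the mutants (limma adjusted p = 0.299). The largest sum was in mutant replicate 4, the library with the lowest value of each caudal gene, and the smallest mutant sum was in replicate 2. Several members, among them Col1a1, Des and Acta2, are also made by mesenchyme. Pgr, a further member that passed, rose 5.17-fold, from 75.9 ± 17.8 in WT to 453 ± 294 in mutants (limma adjusted p = 0.00524). Scaled counts of Pgr were 856 in mutant replicate 4 and 207 in mutant replicate 2. With the mean of that list as a covariate the log2 fold change was 8.43 for Cdx1 (SE 1.86, limma adjusted p = 0.0657). It was 2.25 for Cdx2 (SE 0.52, limma adjusted p = 0.0735) and 12.34 for Cdx4 (SE 0.79, limma adjusted p = 0.000956), so of the 3 only Cdx4 kept its call. Each estimate was larger than without the covariate, and so was each SE (0.96, 0.27 and 0.49 without it). The list sums of the genotypes did not overlap, so genotype and list level are largely confounded in that fit. Over all genes 155 were higher and 139 lower in that fit. The part of decidua in the caudal values was not tested further.

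Cdx2 was also set beside markers of the extraembryonic ectoderm and ectoplacental cone, the other tissue that expresses it. Of 13 tested members 1 rose, Gata3 (2.08-fold, limma adjusted p = 0.0163), and none fell, a share near the 8.03% of all genes tested, with a list median log2 fold change of -0.10 against -0.0018 over all genes tested (0.27 with edgeR). Elf5, which keeps trophoblast stem cells in their fate together with Cdx2, was 341 to 505 in WT, 113.1 in mutant replicate 1 and 372 to 490.3 in the other mutants (limma adjusted p = 0.504). Eomes, a T-box gene of trophoblast and streak, was 6221 to 8707 in WT, 1200.1 in mutant replicate 1 and 4480.3 to 6257 in the other mutants (limma adjusted p = 0.193). The summed list was 27116 to 35130.1 in WT and 10593, 35922, 24423 and 51159 in mutant replicates 1, 2, 4 and 5. Mutant replicate 1, with the lowest sum, held the highest Cdx2 value. With the mean of that list as a covariate the log2 fold change of Cdx2 was 1.74 (SE 0.21, limma adjusted p = 0.00115).

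**Figure D3:**
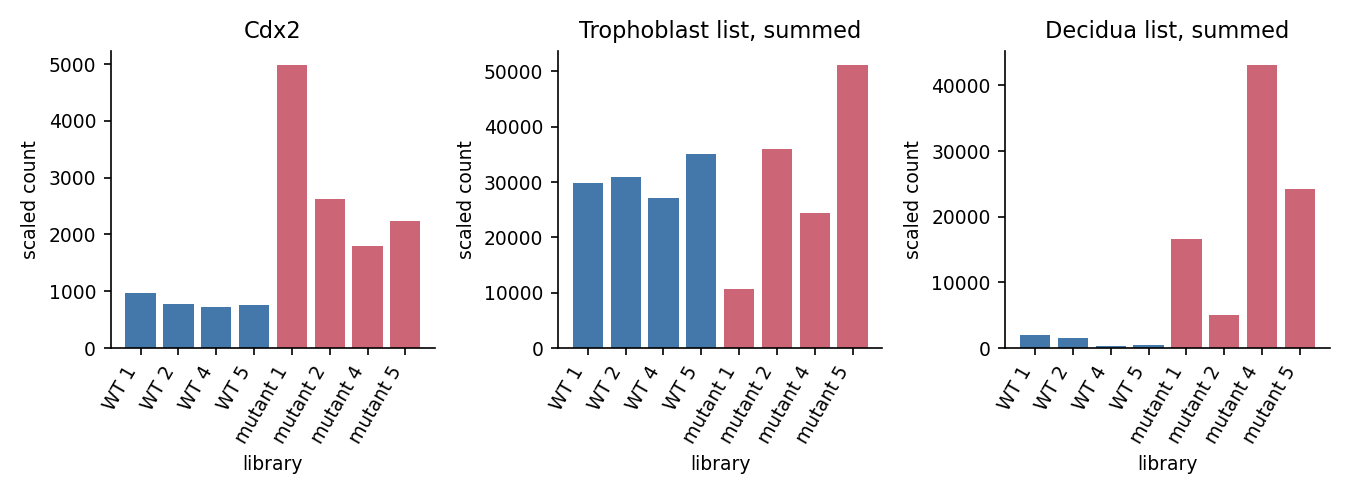
Bars give scaled counts in each library for Cdx2, for the sum of the 14 trophoblast list members and for the sum of the 9 decidua list members, with WT libraries in blue and mutants in red. Cdx2 is highest in mutant replicate 1, where the trophoblast sum is lowest at 10593, and the decidua sum is highest in mutant replicate 4 at 43129.

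Hox genes, the best known targets of Cdx proteins, rose with them. Of the 39 mouse Hox genes 36 were in the table and 25 had enough counts to be tested, and 22 of those 25 rose and none fell (21 with edgeR, 22 with DESeq2). Their median log2 fold change was 5.20, against -0.0018 over all genes tested, of which 8.03% rose and 7.55% fell. Genes with low counts in both groups were left untested, so the 25 include members that passed only because the mutants held counts. By paralog group, 9 of 9 tested members of groups 1 to 4 rose (8 with edgeR or DESeq2), 8 of 9 of groups 5 to 9 and 5 of 7 of groups 10 to 13, and the medians were 4.30, 5.81 and 4.28, with 5.94 for groups 5 to 9 when Hoxc5, which had no WT read, was set at its floor of 3 reads over the group. Hoxa7, Hoxc13 and Hoxd13 did not pass. As WT Hox values are often near 0, these medians and their order depend on the pseudocount. With a pseudocount of 5 they were 3.05, 3.91 and 4.21 in the same order of groups, and 3.59 over all 25. With edgeR they were 5.34, 6.68 and 4.92.

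By the naming rule the Hox genes with the smallest p were Hoxb6, Hoxd9, Hoxb2 and Hoxd8. Each of them passed the filter through the mutant libraries only, which fixed in advance that its groups would not overlap. Hoxb6, a central Hox gene, had 1 read in WT while mutants had 2215, a depth-adjusted ratio of 2317 with an exact 95% counting interval of 415 to 91542. Hoxd9 was 3.10 ± 3.10 in WT and 883 ± 84.4 in the mutants. Hoxb2, a hindbrain gene, was 1.63 ± 1.23 and 219 ± 47.5, and Hoxd8 was 2.37 ± 1.13 and 261 ± 82.0. When the mutant libraries with the largest decidua sums, replicates 4 and 5, were left out, 18 of the 25 rose, and with the decidua covariate 10 did, of which 4 were in groups 1 to 4, 6 in groups 5 to 9 and 0 of 7 in groups 10 to 13. The medians with that covariate were 4.28, 5.96 and 1.22 for these groups. Over all 15600 genes tested, 707 rose without mutant replicates 4 and 5 and 155 rose with the covariate.

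Genes that act with caudal genes in the posterior growth zone moved in both directions. Of 13 tested members 7 rose (Msgn1, Evx1, Rspo3, Nkx1-2, Tbx6, Dll1 and Wnt3a) and Fgf8, an FGF ligand gene of the streak, fell, with a list median of 1.80. Among all genes tested 8.03% rose and 7.55% fell. Evx1 rose 5.22-fold from 1049 ± 381 to 5368 ± 1821 (limma adjusted p = 0.00101). Msgn1, a presomitic mesoderm factor, passed the filter through the mutant libraries only and went from 1.71 ± 0.897 to 143 ± 97.0. Fgf8 fell 2.76-fold, from 1960.0 ± 447 to 715 ± 177 (limma adjusted p = 0.00228). Cyp26a1, which breaks down retinoic acid, was 11333 ± 679.9 and 6653 ± 2295 (limma adjusted p = 0.0521). T was 756 ± 435 in WT against 2127 ± 545 in mutants (limma adjusted p = 0.0718). Without mutant replicates 4 and 5, 4 of the 13 rose and 1 fell (list median 1.64), and with the decidua covariate 1 rose (list median 1.65). Of all 15600 genes tested, 707 rose and 723 fell without those libraries, and 155 rose and 139 fell with the covariate.

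Genes of the WNT, FGF, BMP and retinoic acid pathways that act upstream of caudal genes rose in 6 of 15 cases and fell in 2, beside 8.03% and 7.55% of all genes tested, with a list median log2 fold change of 0.13. Without mutant replicates 4 and 5, 4 rose and 1 fell (median 0.28), and with the decidua covariate 2 rose and 0 fell (median -0.052). Over all 15600 genes tested, 707 rose and 723 fell without those libraries, and 155 rose and 139 fell with the covariate. The ligand gene Bmp4 rose 3.58-fold (limma adjusted p = 0.000459), Sp5, a WNT-responsive transcription factor, rose 3.38-fold (limma adjusted p = 0.00745), and Lef1, Tcf7, Fgfr1 and Aldh1a2, the gene of an enzyme that makes retinoic acid, rose too. Tcf7l1, the TCF factor best known as a repressor, fell 1.99-fold (limma adjusted p = 0.00196), and Fgf4 fell 2.36-fold. Ctnnb1, the gene of β-catenin, was 32008 ± 2564 in WT against 30207 ± 1548 in mutants (limma adjusted p = 0.485). The receptor genes Rara, Rarb and Rarg did not pass. Aldh1a2 was 2125 in mutant replicate 4 and 338 in replicate 2, the libraries with the largest and smallest mutant decidua sums.

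The allantois, which depends on Cdx2 in the mouse, and primitive blood, which depends on Cdx genes in zebrafish and mouse cells, were examined by their markers. Of 8 allantois list members 7 were tested and all 7 rose, with a median log2 fold change of 2.98 (2.43 over all 8 with no filter). Tbx4 passed the filter through the mutant libraries only, and the untested member, Vcam1, was 12.0 ± 10.5 in WT and 4.17 ± 2.89 in mutants. Foxf1, a forkhead factor of extraembryonic and lateral mesoderm, was at 106 ± 75.4 in WT against 6169 ± 3890 in mutants, Tbx2 rose 7.88-fold, Tbx4 was 3.09 ± 1.17 and 340.2 ± 382, and Pitx1 rose 2.05-fold. Of 9 tested blood members 7 rose and none fell, with a median of 2.64. Both lists stand beside the 8.03% of all genes tested that rose and the 7.55% that fell. Lmo2, a cofactor needed for blood formation, was 74.1 ± 9.49 and 2565 ± 322, and the others with the smallest p were Runx1, Gfi1b and the endothelial receptor gene Tek. Gfi1b, too, passed the filter through the mutant libraries only. Gata1 was 491 ± 138 in WT against 555 ± 297 in mutants (limma adjusted p = 0.994). Etv2 was 158 ± 109 against 525 ± 244 (limma adjusted p = 0.0513). Hbb-bh1, at 0 in WT and 0 to 26.9 in mutants, was not tested. Without mutant replicates 4 and 5, 7 of 7 allantois and 5 of 9 blood members rose, beside 707 of all 15600 genes tested. With the decidua covariate 3 of 7 allantois members rose, with a median of 3.55, and 2 of 9 blood members, with a median of 2.91. Over all 15600 genes tested 155 rose in that fit.

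**Figure D4:**
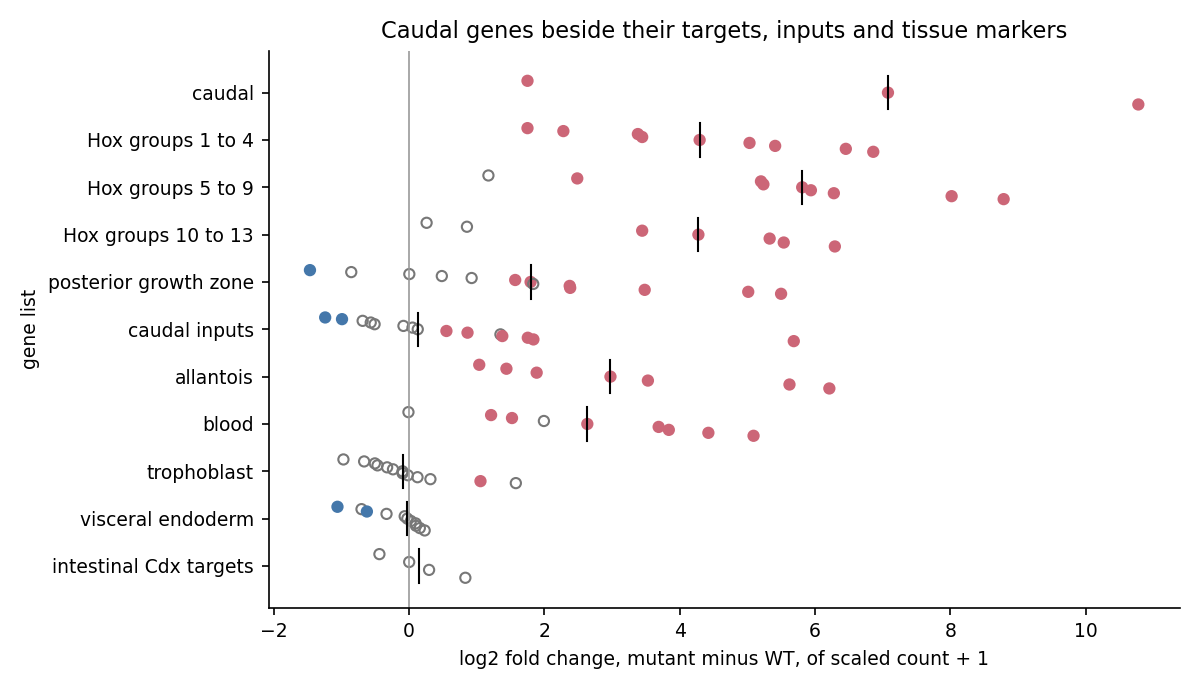
Each point is a tested gene, placed by its log2 fold change (mutant minus WT, of scaled count + 1) within its list; red points rose, blue points fell and open points did not pass, and black ticks are list medians. Medians are 7.08 for the caudal genes and 4.28 to 5.81 for the Hox groups, and the trophoblast and visceral endoderm lists centre near 0.

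Genes with profiles most like each caudal gene were found by the root mean square difference of log2(scaled count + 1) over the 8 libraries, after centring each gene on its own mean. Nearest to Cdx1 were Hoxb1 (0.675), the forkhead gene Foxf1 (0.772), Notumos (0.870), the noncoding RNA gene Fendrr beside Foxf1 (0.877) and the netrin receptor gene Unc5c (0.926). Nearest to Cdx4 were Hoxb6 (1.26), the matrix gene Hapln1 (1.46), Hoxd9 (1.78), the BMP ligand gene Bmp5 (2.01) and the WNT inhibitor gene Notum (2.13). Nearest to Cdx2 were Angptl2 (0.163), Frmd6 (0.181), the collagen gene Col5a1 (0.215), Igfbp4 (0.222), which encodes a binding protein of insulin-like growth factors, and Bmp4 (0.230). Notum and Notumos overlap in part on opposite strands, and reads in the shared stretch cannot be told apart. On the same measure Cdx1 and Cdx4 were 2.26 apart, against 3.02 for Cdx1 and Cdx2 and 4.56 for Cdx4 and Cdx2. Profiles were not scaled, so these distances largely restate the differences in log2 fold change and are no separate evidence of likeness. Hoxb6, Hapln1, Hoxd9, Bmp5, Notumos and Fendrr passed the filter through the mutant libraries only.

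Genomic neighbours of the caudal genes were examined in the same fit. Predicted genes and genes without deposited values were passed over, so closer genes may exist. Of 18 neighbours, 3 on each side of each gene, 15 were tested, 2 rose and 1 fell, a share of 20% beside 15.6% of all genes tested. Beside Cdx2, none of the 5 tested neighbours passed, including Pdx1, a pancreatic and duodenal homeobox gene of the same ParaHox cluster 24.96 kb away (104 ± 31.7 in WT against 111 ± 38.3 in mutants, limma adjusted p = 0.892). Beside Cdx1, Pdgfrb, a PDGF receptor gene 8.95 kb away, rose 3.45-fold (limma adjusted p = 0.0432) and lost its call under 11 of 22 alternatives, and Arsi rose 2.47-fold (limma adjusted p = 0.0174). Beside Cdx4, Chic1 at 25.9 kb was 231 ± 45.9 in WT against 327 ± 76.4 in mutants (limma adjusted p = 0.162), and Nap1l2, a nucleosome assembly gene 135 kb away, fell 6.22-fold (limma adjusted p = 0.00306).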

How the data were processed

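RNA from 8 whole embryos was amplified over 12 cycles with a full-length cDNA kit that does not keep strand, per the labels' protocols. The submitters' processing notes name mm10, STAR 2.5.0a, cutadapt 1.6, HTSeq 0.5.3 and DESeq; settings and annotation release were not given in what was used here. The deposited values are a signal, and the deposited table is named as counts that the authors scaled with DESeq. Every value was a whole multiple of its library's step (100% within 0.01 of a read), so reads were recovered by division.

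Genotypes were contrasted by limma 3.58.1 (R 4.3.3) on scaled counts after log2(value + 1) (trended prior, two-sided, Benjamini-Hochberg over all genes, threshold 0.05) for 15600 genes with at least 10 in at least 4 libraries. The 8 libraries were grouped by genotype. Same-genotype libraries differed beyond sampling noise (chi-square per degree of freedom 17.3 to 75.3), so each counts as 1 sample. edgeR 4.0.16 and DESeq2 1.42.0 were run on recovered reads. The fitting code was tested on simulated data, where limma called 27.5% of 2-fold and 92.2% of 4-fold changes. Of its calls there, 6.72% were unchanged genes. The simulated spread was set by hand, so these shares need not hold for the embryos. Other alternatives were pseudocounts, filters, centring, quantile normalization, array weights, a replicate block, covariates and left-out libraries. Promoter sequences are RefSeq's.

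Genes were named by rule: the members, Axin1 and Axin2, up to 4 members of each list past the threshold with the smallest p (2 where none passed), 3 neighbours on each side, and the 5 nearest profiles. Neighbours leave out predicted genes named Gm or Rik and genes without deposited values. Profiles leave out the members, predicted genes, Xist and Y-linked genes. Others were named after their values were seen. The members, lists and tests were chosen with earlier results of these data known.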

Additional observations from a re-analysis of the deposited data

Results flagged for a closer look

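Of 24 groups of 4 values examined for a sample standing apart, 3 had a gap to the nearest other value that exceeded Dixon's 95% critical share of the group's range, and chance marks about 1 in 20 such groups. For Cdx4 in WT that share was 1.0, because replicate 4 had 3 reads and the others none. The within-library log2 ratio of Cdx4 to Cdx2 in WT had 0.851, from the same 3 reads. For Axin1 in WT it was 0.867, with replicate 4 at 2963 against 4884 to 5274 in the others.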

How the results depend on the processing

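Cdx1, Cdx2 and Cdx4 stayed higher under all 22 alternatives each, and the calls of Cdx1 and Cdx2 were lost only with the decidua covariate (log2 fold change 8.43 and 2.25). Leaving out each library in turn gave 5.94 to 7.60 for Cdx1, 1.46 to 1.95 for Cdx2 and 10.51 to 11.24 for Cdx4. It gave 4.20 to 5.90 for the difference between Cdx1 and Cdx2, 8.78 to 9.54 between Cdx4 and Cdx2, and 3.06 to 4.69 between Cdx4 and Cdx1, and 853 to 1295 genes higher and 734 to 1144 lower (734 without WT replicate 1 and 743 without WT replicate 4). With only the 6 libraries that hold Y-linked transcripts, these differences were 3.88, 8.63 and 4.75, and without mutant replicates 4 and 5 they were 5.16, 9.11 and 3.95. Neither subset can reach an exact p under 0.0667, so no call was possible there. With a pseudocount of 5 the difference between Cdx4 and Cdx1 was 2.07. Genes higher and lower numbered 528 and 493 in the 6 libraries, 707 and 723 without mutant replicates 4 and 5, and 155 and 139 with the decidua covariate, against 1253 and 1178, and the cause was not tested. With median centring 1029 were higher and 1590 lower. The same-numbered libraries of the genotypes did not deviate together (correlations -0.036, -0.17, -0.19 and -0.047, beside -0.22 to 0.24 for other pairs). A pairing by litter or handling need not show in these values, so whether the numbers pair the libraries is not known. With the replicate number as a block Cdx1 was at 7.08 (limma adjusted p = 0.0062), all 3 members kept their calls, and 910 genes were higher and 789 lower.

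Alternatives were run gene by gene only for genes named by rule, and among these signs turned for genes that did not pass: Csf1r (-0.25 without mutant replicates 4 and 5, -2.24 with the decidua covariate), Lnx2 (-0.041 with median centring, -0.019 to 0.12 with 1 library left out, -0.025 in the 6 libraries), Pan3 (0.015 without mutant replicates 4 and 5), Pdx1 (-0.0017 with median centring, -0.079 with quantile normalization, -0.12 to 0.28 with 1 library left out), Polr1d (-0.090 to 0.014 with 1 library left out, 0.039 in the 6 libraries) and Tcof1 (0.094 with the decidua covariate). Counts of 3 reads limit what can be said of Cdx4 in WT: its absence from 3 libraries is only non-detection at 26615732 or more reads.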

Other observations

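Genes known as targets of CDX2 in intestinal epithelium gave no call with limma. Of 8 listed, 7 were in the table and 4 were tested, and none passed with edgeR either (1 higher with DESeq2; list median 0.15). Vil1, the gene of an actin bundling protein of microvilli, was 2921 ± 158 in WT against 3612 ± 501 in mutants (limma adjusted p = 0.08), and the intestinal cadherin gene Cdh17 was 20.8 ± 8.09 against 36.2 ± 8.45. Lower mean values in mutants were seen for Lgals4 (15.3 ± 3.50 against 11.0 ± 1.81) and for the untested Gpa33 (10.5 ± 3.84 against 1.43 ± 1.58), Isx (17.1 ± 12.2 against 0.802 ± 1.08) and Muc2 (3.27 ± 4.06 against 0.471 ± 0.941). With no filter 1 of 7 was called lower and the list median was -0.44. In the visceral endoderm list, an epithelium present in these embryos, 2 of 11 fell, Afp (2.08-fold, limma adjusted p = 0.000849) and Foxa2 (1.54-fold, limma adjusted p = 0.00579), and none rose, beside 7.55% of all genes tested that fell. With the decidua covariate 0 of the 11 fell, beside 139 of all 15600 genes tested.

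Of 7 tested Hox genes of groups 10 to 13, 4 (Hoxa10, Hoxa11, Hoxd10 and Hoxd11) were highest among mutants in replicate 4, where the caudal genes were lowest, and 2 (Hoxa13 and Hoxd13) were lowest there. Hoxa10 was 5270.2 there and 296.5 in mutant replicate 2, and it is also expressed in uterine decidua. The summed decidua list had its mutant extremes in these 2 libraries, and its part in the Hox values was not tested.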
